A study of Homo sapiens with 12 samples.

Results

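RNA that came down with Argonaute 2 (AGO2) was compared with RNA from a mock precipitate in K562 cells carrying miR-143. K562 is a human erythroleukemia cell line, and the cells were K562-C/EBPα-ER, a derivative with an estrogen receptor fusion of the transcription factor C/EBPα, per the methods of the study, while the labels name K562 alone. The members are the gene rows with 1 FPKM or more (fragments per kilobase of transcript, relative to all mapped fragments) in either precipitate, which were 10643 of 61782 rows, or 17.2%. For each row the log2 ratio was log2((AGO + 1)/(IgG + 1)) of the FPKM values, a scale that understates the change of low genes.

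The cells had received the lentiviral vector pLV-miR-143 (Biosettia) and were kept under puromycin as a transduced population. The methods of the study give puromycin selection or sorting after transduction and do not say which was used here. The parental line was itself grown in puromycin. Lysates were precipitated with an AGO2 antibody (group miR143_AGO) or with unspecific IgG (group miR143_IgG). Parallel precipitates came from cells with the control vector pLV-control (groups control_AGO and control_IgG), which share no library with the miR-143 cells. The labels name 3 samples in each of the 4 groups, from separate experiments per the design text, and the deposited values are 1 average per gene row and group, so that nothing below has a replicate check and no test was made.

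MicroRNAs are short RNAs that guide an Argonaute protein to messenger RNAs, mostly through pairing of the miRNA seed with the 3′ UTR. Argonaute then recruits a TNRC6 (GW182) scaffold protein, and the bound mRNA is deadenylated, decapped and translated less. An mRNA held by AGO2 in this way is enriched in the AGO2 precipitate over an unspecific one, whereas abundant RNAs that stick to beads or antibody reach both.

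The mature miRNAs whose seed matches carry the comparison of 3′ UTRs below are shown here, from RefSeq on GRCh38.p14, 5′ to 3′, with the seed (bases 2 to 8) in capitals. The first is a product of the vector, as is miR-143-5p, which is not shown. The others, miR-17, miR-19b and miR-92a, come from the miR-17/92 cluster, a group of miRNAs known for high levels in leukemic and progenitor cells.
hsa-miR-143-3p: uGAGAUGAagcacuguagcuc
hsa-miR-17-5p: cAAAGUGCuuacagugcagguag
hsa-miR-19b-3p: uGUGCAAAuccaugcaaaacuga
hsa-miR-92a-3p: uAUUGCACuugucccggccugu

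The matching sites in the mRNAs described below are shown next, read from the GENCODE 29 transcripts on GRCh38 in the sense of the mRNA, with the seed match in capitals. They were chosen from mRNAs at least 10-fold higher in the AGO2 precipitate, apart from LIMK1, which is on the list of published miR-143 targets. A match is a string of letters and not a measured binding site. An 8mer is a match to seed bases 2 to 8 followed by an A, and a 7mer lacks either the A or the match to base 8.
MAPK7, miR-143-3p 8mer, plus strand, chr17:19383351-19383358: attattctgcaggtTCATCTCAgacc
SNX8, miR-143-3p 8mer, minus strand, chr7:2254755-2254762: gaggcagggatctcTCATCTCAcaga
MYCL, miR-143-3p 8mer, minus strand, chr1:39896384-39896391: ctttcccacctgccTCATCTCAatcc
S100A11, miR-143-3p 7mer, minus strand, chr1:152032599-152032605: cagcctttctgtcaTCATCTCcaca
LIMK1, miR-143-3p 8mer, plus strand, chr7:74122125-74122132: ctcagcccctgcagTCATCTCAgagc
TNFRSF12A, miR-19b-3p 8mer, plus strand, chr16:3022093-3022100: aaggaactgcagcaTTTGCACAgggg
SOCS1, miR-19b-3p 8mer, minus strand, chr16:11254530-11254537: atatacccagtatcTTTGCACAaacc
BTG2, miR-92a-3p 8mer, plus strand, chr1:203308497-203308504: agttctcagtcactGTGCAATAtgcc
BTG2, miR-92a-3p 8mer, plus strand, chr1:203308808-203308815: tttgtcgtagacttGTGCAATAtata
TPRG1L, miR-17-5p 8mer, plus strand, chr1:3629419-3629426: gcttgttgaataatGCACTTTAaaac
ULK1, miR-17-5p 8mer, plus strand, chr12:131921836-131921843: tgtcaatcacccaaGCACTTTAtgca

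The vector's own gene was the most abundant RNA of the AGO2 precipitate. MIR143 (5:149428918-149429023, the hairpin gene, GENCODE 29) was at 118393 FPKM in AGO and 44781 FPKM in IgG of the miR-143 cells, a log2 ratio of 1.40, and was listed at 0 in both precipitates of the control cells. It made up 28.8% of the summed FPKM in AGO and 1.73% in IgG. A row of this kind counts fragments over the hairpin gene and does not separate the mature miRNA from its precursor.

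Erythroid genes, the markers of K562 cells, were present in both precipitates. All 8 K562 marker rows that carry 1 gene and reached 1 FPKM were above 0 in both. KLF1, an erythroid transcription factor, had the highest ratio of them at 289 FPKM in AGO and 42.8 in IgG, and TFRC, the transferrin receptor, the lowest at 27.5 and 70.0. The globin genes HBG1, HBG2, HBE1 and HBZ lie on joined rows that name several genes and were not read. Of 14 marker genes of other blood lineages, 10 were listed at 0 in AGO and 10 in IgG. Of 9 markers of epithelial, stromal and packaging cells, 4 were listed at 0 in each, while keratin 8 (KRT8) was at 92.0 FPKM in AGO and 30.4 in IgG.

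Library sizes were not given with the values, so the depth is unknown. The smallest values above 0, multiplied by transcript length, were 1.76 times higher in IgG than in AGO of the miR-143 cells, and 13.9 times higher in IgG of the control cells than in AGO of the miR-143 cells. The summed FPKM was 411417 in AGO and 2595868 in IgG, and the part of depth and of this sum in single ratios was not tested.

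Across the 10643 rows the log2 ratio had a median of -0.22 and quartiles of -1.38 and 1.07. At least 10-fold higher in AGO were 170 rows (1.60%), and at least 10-fold lower were 391 (3.67%). At a 2-fold threshold 2828 rows (26.6%) were higher and 3565 (33.5%) lower. Near the 10-fold threshold lay C3orf18, just inside at 10.03-fold, and EML2, just outside at 9.967-fold. The counts lean on low values, because IgG was at 0 for 51 of the 170 higher rows and AGO was at 0 for 139 of the 391 lower rows.

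**Figure D1:**
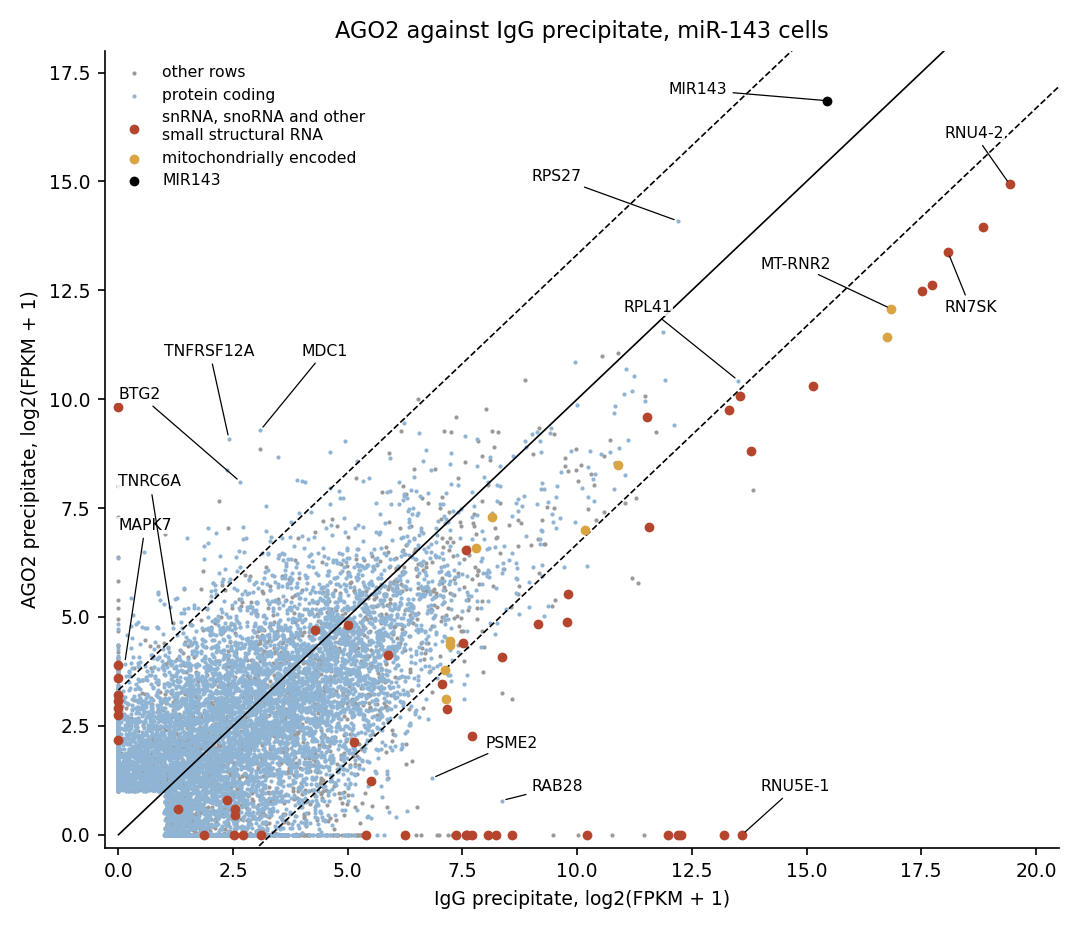
Level of each compared row in the AGO2 precipitate (vertical axis) and the IgG precipitate (horizontal axis) of miR-143 cells, both as log2(FPKM + 1), 1 point per row. The solid line marks equal levels and the dashed lines a 10-fold difference. MIR143 sits at the upper right above the line of equality, the most abundant structural and mitochondrial RNAs of IgG lie at or beyond the lower dashed line, and mRNAs such as TNFRSF12A, MDC1 and BTG2 lie beyond the upper one.

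What AGO2 held differed from the mock precipitate above all by RNA class. Rows of 1 protein-coding gene made up 38.0% of the summed FPKM in AGO and 8.48% in IgG, and their median log2 ratio was -0.15 over 7908 rows. Small nuclear RNAs (snRNAs), the RNA cores of the spliceosome, made up 12.1% in AGO and 47.2% in IgG. Other small structural RNAs, such as the 7SK and 7SL RNAs, made up 5.95% and 28.7%, and mitochondrially encoded RNAs 1.92% and 8.98%. FPKM weights short RNAs upward, so these are shares of summed FPKM and not of reads.

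All 16 snRNA rows were at least 2-fold lower in AGO and 12 of them at least 10-fold lower, with a median log2 ratio of -4.89. RNU4-2, the U4 snRNA, was at 31202 FPKM in AGO and 706258 in IgG (log2 ratio -4.50). RNU5E-1, a U5 snRNA, was listed at 0 in AGO and at 12356 FPKM in IgG. The least depleted was 1 of the rows named U1, at 91.4 FPKM in AGO and 190 in IgG (-1.05). The whole class was thus lower in the AGO2 precipitate, by amounts that differed widely between its rows.

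RNAs of the small cytoplasmic and nuclear ribonucleoproteins sat just as low. RN7SK, the RNA that holds back the elongation factor P-TEFb, was at 10609 FPKM in AGO and 277835 in IgG (-4.71). RN7SL1 and RN7SL2, the RNA of the signal recognition particle, were at 6343 against 216838 FPKM (-5.10) and 5737 against 188084 FPKM (-5.03). RMRP, the RNA of RNase MRP, was at 1263 FPKM in AGO and 36070 in IgG (-4.84). RNY1, a Y RNA bound by Ro60, was listed at 0 in AGO and at 9402 FPKM in IgG. All 8 rows of this list were at least 2-fold lower and 7 at least 10-fold lower, beside 33.5% and 3.67% of all rows. The same list had a median of -4.05 over 7 rows in the control cells, against -5.01 here.

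Small nucleolar and Cajal body RNAs (snoRNA and scaRNA) guide ribosomal and spliceosomal RNA modification. Of 17 such rows, 10 (58.8%, beside 3.67% of all rows) were at least 10-fold lower and 2 (11.8%, beside 1.60%) at least 10-fold higher. SNORA12 was listed at 0 in AGO and at 4727 FPKM in IgG. SNORA71A went the other way, with 909 FPKM in AGO and a listing at 0 in IgG, and the control cells had 1215 FPKM and 0. These rows are short, and a level in FPKM then rests on fewer fragments than the same level of an mRNA.

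Of the 10 mitochondrially encoded rows, 9 (90.0%, beside 33.5% of all rows) were at least 2-fold lower in AGO and 4 (40.0%, beside 3.67%) at least 10-fold lower. The ribosomal RNAs MT-RNR1 (2775 against 111265 FPKM, -5.32) and MT-RNR2 (4316 against 117578 FPKM, -4.77) lay lowest. The mRNA of cytochrome b, MT-CYB, lay highest, at 157 FPKM in AGO and 281 in IgG (-0.84). Mitochondrial transcripts are made and translated inside the organelle.

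Long noncoding RNAs as a class had a median of -0.54 over 296 rows. Of these, 2 (0.676%, beside 1.60% of all rows) were at least 10-fold higher and 20 (6.76%, beside 3.67%) at least 10-fold lower. H19, an imprinted RNA that also carries a miRNA hairpin, was at 36.1 FPKM in AGO and listed at 0 in IgG, and at 30.7 FPKM and 0 in the control cells. MALAT1, a nuclear speckle RNA, on the higher of its rows, was at 41.1 FPKM in AGO and 736 in IgG (-4.13). SNHG5, a spliced host of snoRNAs, was at 37.0 FPKM and 697 FPKM (-4.20). The telomerase RNA TERC, which was not counted in this class, was at 20.2 and 182 FPKM (-3.10). Of 14 long noncoding RNAs listed as cytoplasmic or spliced snoRNA hosts, 9 (64.3%, beside 33.5% of all rows) were at least 2-fold lower in AGO. Only H19 (7.14%, beside 26.6%) was at least 2-fold higher. Pseudogene rows had a median of -0.92. Of 400 such rows, 3 (0.750%, beside 1.60% of all rows) were at least 10-fold higher and 33 (8.25%, beside 3.67%) at least 10-fold lower.

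**Figure D2:**
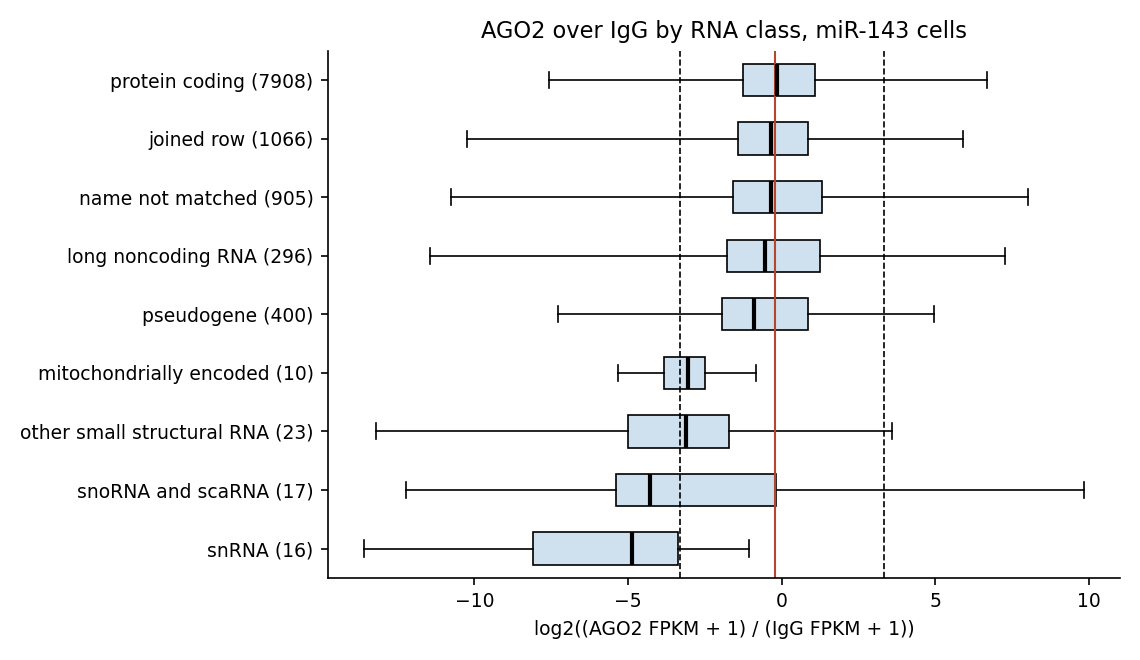
AGO2 over IgG, as the log2 ratio in miR-143 cells, for each RNA class with 10 or more rows, with the number of rows in brackets. Boxes span the quartiles with the median as a thick line, whiskers reach the lowest and highest row, the red line is the median of all rows (-0.22) and dashed lines mark 10-fold. The 4 classes of structural and mitochondrial RNA have medians between -4.89 and -3.04, and the protein-coding median is -0.15.

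TNFRSF12A, MDC1, CITED2 and BTG2 had the largest ratios among rows of 1 protein-coding gene at 1 FPKM or more in both precipitates. Of the 7908 rows of 1 protein-coding gene, 122 (1.54%) were at least 10-fold higher in AGO and 204 (2.58%) at least 10-fold lower. Of these, 20 higher rows had a listing at 0 in IgG and 43 lower rows in AGO. The genes described next were the highest among the 5514 coding rows at 1 FPKM or more in both precipitates, so that none of them rests on a listing at 0.

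TNFRSF12A, the receptor of the cytokine TWEAK, was at 543 FPKM in AGO and 4.31 in IgG, a log2 ratio of 6.68. Control cells had 550 and 25.9 FPKM (4.35). Its AGO level was thus much the same in both cell populations, and the IgG level was the lower one in miR-143 cells. CITED2, a short-lived coactivator that competes with HIF1A for p300, was at 333 and 4.17 FPKM (6.01), and at 391 and 23.9 FPKM in the control cells (3.97). BTG2, an antiproliferative protein that recruits the CCR4-NOT deadenylase, was at 274 and 5.31 FPKM (5.45), and at 289 and 11.1 FPKM in the control cells (4.59). SOCS1, the inhibitor of JAK kinases, was at 130 and 2.86 FPKM (5.09), and at 172 and 14.2 FPKM in the control cells (3.51). All 4 mRNAs were at least 10-fold higher in AGO in both populations, and TNFRSF12A, SOCS1 and BTG2 carry the 8mers shown above.

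MDC1, a scaffold of the DNA damage response, had the second largest ratio but no counterpart in the control cells. It was at 623 FPKM in AGO and 7.53 in IgG (6.19) of the miR-143 cells, and at 0.925 FPKM in AGO and 4451 in IgG (-11.18) of the control cells. A difference of this size in opposite directions rests on 1 average per group.

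The remaining genes of the 15 highest had varied roles. S100A11, a calcium-binding protein, was at 407 and 10.1 FPKM (5.20). PDZD11, an adaptor of membrane pumps, was at 111 and 1.82 FPKM (5.32), and SNX8, a sorting nexin, at 120 and 3.40 FPKM (4.79). NUBP1, an assembly factor of cytosolic iron-sulfur proteins, was at 97.4 and 2.66 FPKM (4.75). SLC25A28, the mitochondrial iron carrier mitoferrin 2, was at 103 and 2.89 FPKM (4.74), and HMOX2, the constitutive heme oxygenase, at 134 and 5.61 FPKM (4.35). PKDCC (4.46), STRN4 (4.33), TPRG1L (4.29) and LINC00116 (4.26), which the annotation gives as a coding gene under another symbol, completed the group. In the control cells 13 of the 15 were at least 2-fold higher in AGO and 9 at least 10-fold higher. The shares over all rows compared there were 34.5% and 4.38%.

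Other mRNAs were listed at 0 in IgG, so that no fold can be given. The highest of these in AGO was FBXL16, an F-box protein, at 80.3 FPKM, while the control cells had 0.442 FPKM in AGO. ULK1, the kinase that starts autophagy, was at 27.6 FPKM in AGO, NAGK, a sugar kinase, at 25.6, PPARD, a nuclear receptor for fatty acids, at 19.5, and SMPD1, the acid sphingomyelinase, at 18.2. ULK1, NAGK, PPARD and SMPD1 were between 17.8 and 27.0 FPKM in AGO of the control cells, with IgG listed at 0 for 3 of them and at 0.519 FPKM for ULK1.

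Of the 122 coding rows at least 10-fold higher in AGO, 103 were at least 2-fold higher in the control cells too, 48 of them at least 10-fold, and 5 were at least 2-fold lower. The background in the control cells was 34.5% of rows at least 2-fold higher and 4.38% at least 10-fold higher. This background covers rows of every class at 1 FPKM or more in either control precipitate. The 122 and 204 coding rows did not have to pass that filter. Of the 204 coding rows at least 10-fold lower, 100 were at least 2-fold lower in the control cells, 26 at least 10-fold, and 31 were at least 2-fold higher. The control background in that direction was 36.2% at 2-fold and 4.98% at 10-fold. The higher set thus recurred in the second cell population more often than the lower set did. A high AGO level defines the first set, however, and a high IgG level the second. The smallest values of control IgG were 13.9 times those of AGO in miR-143 cells, and the backgrounds were not matched for level. The shares of recurrence are therefore not on equal terms, and their difference was not tested.

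At the other end of the order lay PSME2, RPL21, UBL5 and others. PSME2, a subunit of the proteasome activator PA28, was at 1.46 FPKM in AGO and 113 in IgG (-5.53). The control cells had 61.4 and 22.3 FPKM (1.42), the opposite direction. RPL21, a protein of the large ribosomal subunit, was at 7.69 and 185 FPKM (-4.42) and at 10.8 and 72.7 FPKM in the control cells (-2.64). UBL5, a ubiquitin-like protein of splicing, was at 31.7 and 618 FPKM (-4.24) and at 32.3 and 376 FPKM in the control cells (-3.50). SERBP1, a protein that binds idle ribosomes, was at 2.93 and 70.7 FPKM (-4.19), and RALA, a small GTPase, at 1.69 and 48.1 FPKM (-4.19). ASUN (-4.62), SPG20 (-4.57), EPB41L2 (-4.45), C2orf44 (-4.38) and PNRC2 (-4.34) completed the 10 lowest. Of these 10, 6 were at least 2-fold lower in the control cells, beside 36.2% of all rows compared there. RAB28, a small GTPase of cilia, was lower still at 0.724 and 327 FPKM (-7.57), and fell outside this group because its AGO level was under 1 FPKM.

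A further group was listed at 0 in AGO. TXNDC9, a thioredoxin-like protein, was at 53.9 FPKM in IgG, PID1 at 48.9, AMER3 at 34.4, the histone deacetylase HDAC2 at 31.4 and RCL1, a ribosome biogenesis factor, at 31.1. In IgG of the control cells TXNDC9, PID1, AMER3 and RCL1 were listed at 0 and HDAC2 was at 9.33 FPKM. Most of these IgG levels were therefore found in the miR-143 cells and not in the control cells.

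Among rows of 1 protein-coding gene, the most abundant mRNAs of the AGO2 precipitate were not those most enriched. RPS27, a ribosomal protein of the small subunit, was at 17432 FPKM in AGO and 4705 in IgG (1.89), and was the highest mRNA in both populations. FTL, the ferritin light chain, was at 1843 and 995 FPKM (0.89). The other 8 of the 10 highest such rows in AGO were ribosomal protein mRNAs with negative ratios, from RPLP0 at 2974 and 3735 FPKM (-0.33) to RPL41, on the row with the higher level, at 1377 and 11676 FPKM (-3.08). Joined rows, whose values cannot be assigned to 1 gene, were left out of this order, among them those with RPS2 at 2150 and 1901 FPKM (0.18) and RPL18 at 2025 and 1485 FPKM (0.45). A high level in AGO thus went with a higher level still in the mock precipitate for most of them.

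The mRNAs of the silencing machinery differed among themselves and between the 2 cell populations. TNRC6A, the GW182 scaffold that AGO2 recruits, was at 25.9 FPKM in AGO and 1.28 in IgG (3.56), and at 35.8 and 2.10 FPKM in the control cells (3.57). TNRC6B was at 13.4 and 0.372 FPKM (3.39), and TNRC6C at 2.44 and 0.348 FPKM (1.35). The row that joins AGO2 with a clone-named transcript, whose value cannot be assigned to 1 gene, was at 36.2 and 4.57 FPKM (2.74). In the control cells TNRC6B was at 6.60 and 0.517 FPKM (2.32) and the AGO2 row had a ratio of 3.73, whereas TNRC6C was at 1.88 and 22.4 FPKM (-3.02), opposite in sign to the miR-143 cells. The mRNAs of the other Argonaute proteins had values near or below equality, with AGO1 at 7.56 and 7.23 FPKM (0.06), AGO4 at 1.45 and 3.13 FPKM (-0.76) and AGO3 at 1.72 and 10.8 FPKM (-2.12). These were higher in AGO in the control cells, with AGO1 at a log2 ratio of 1.10, AGO3 at 3.51 and 0.539 FPKM (1.55) and AGO4 at 13.1 FPKM in AGO and listed at 0 in IgG. The difference between the populations was not tested. The 7 rows had a median of 1.35, which was 0.06 over the rows of 1 FPKM or more in both precipitates. The precipitation acts on the protein, and these values are those of the mRNAs.

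Genes of miRNA biogenesis divided. XPO5, the exporter of precursor miRNAs, was at 86.0 FPKM in AGO and 11.2 in IgG (2.83). DICER1 was at 6.53 and 2.16 FPKM (1.25). DGCR8, the partner of Drosha, was at 7.29 and 40.6 FPKM (-2.33), and PRKRA, a partner of Dicer, at 4.46 and 31.5 FPKM (-2.57). Of 28 rows of deadenylation and decapping factors, 8 (28.6%, beside 26.4% of coding rows) were at least 2-fold higher. At least 2-fold lower were 10 (35.7%, beside 30.7%), so that both shares were near those of coding rows. BTG2 was highest and the CCR4-NOT subunits CNOT8 (-3.26) and CNOT3 (-3.13) lowest.

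Published targets of miR-143 lay close to the other coding genes. Of 26 such genes found on the rows, 13 reached 1 FPKM in either precipitate, 1 of them on a joined row, and their median log2 ratio was 0.27 beside -0.15 for all coding rows. At least 2-fold higher were 2 of the 13 (15.4%, beside 26.4% of coding rows) and at least 2-fold lower 3 (23.1%, beside 30.7%). In the control cells the median was 0.51 over 11 rows.

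MAPK7, the kinase ERK5 and a known target of miR-143, had the highest ratio on that list. It was at 14.2 FPKM in AGO and 0.0988 in IgG (3.79) of the miR-143 cells, and at 36.9 and 6.69 FPKM (2.30) in the control cells, where MIR143 was listed at 0. Its AGO level was thus higher in the control cells. The IgG level in miR-143 cells was 3.48 times the smallest measurable level for a transcript of its length, so the plain ratio of 143 has a small denominator. LIMK1, a kinase that inactivates cofilin, was at 27.3 and 4.76 FPKM (2.30), and at 38.1 and 12.6 FPKM in the control cells (1.52). HK2, hexokinase 2, was at 2.16 and 0.638 FPKM (0.95). The lowest was the row joining MACC1 with a clone-named transcript, whose value cannot be assigned to 1 gene, at 0.345 and 15.5 FPKM (-3.61), which was at least 10-fold lower in AGO. Above it lay DNMT3A, a DNA methyltransferase, at 0.947 and 4.07 FPKM (-1.38), and ELK1, an ETS factor downstream of ERK, at 5.05 and 12.1 FPKM (-1.11).

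Targets of miR-17 and miR-19 had the highest median of all lists with the pseudocount of 1, whereas the silencing genes were higher with a pseudocount of 0.1 (2.50 beside 2.15) or 0.01 (2.77 beside 2.16) and over rows with a mean of 5 FPKM or more (2.74 beside 2.15). Of 32 such genes, 27 reached 1 FPKM in either precipitate, with a median of 1.85 and 1.62 in the control cells. At least 2-fold higher were 17 (63.0%, beside 26.4% of coding rows) and at least 2-fold lower 2 (7.41%, beside 30.7%). At least 10-fold higher were 5 of the 27, beside 1.54% of coding rows. Their transcripts had a median GC content of 47.0%, near the border between bins of coding genes with medians of -0.57 and -0.15. The part of GC content in the median of this list was not tested.

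SOCS1 led that list. ZBTB4, a methyl-CpG binding repressor, was at 26.5 FPKM in AGO and 0.421 in IgG (4.27), and its 3′ UTR holds 8mers for both miR-17 and miR-19b. E2F1, the cell cycle transcription factor, was at 26.1 and 0.793 FPKM (3.92), and ZBTB7A, an erythroid repressor of fetal globin, at 13.3 and 0.220 FPKM (3.55). MYLIP, the ubiquitin ligase that degrades the LDL receptor, was at 86.9 and 7.73 FPKM (3.33). These 4 genes had log2 ratios of 3.73, 4.11, 2.00 and 4.31 in the control cells, in the same order. At the low end were TNKS, a tankyrase, at 2.43 and 28.8 FPKM (-3.12), and the pocket protein RBL2 at 3.47 and 9.98 FPKM (-1.29).

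Targets of let-7, a miRNA family of differentiated cells, lay near the middle. Their 25 rows had a median of 0.13, with 5 at least 2-fold higher and 5 at least 2-fold lower. NR6A1, an orphan nuclear receptor, was highest at 47.8 and 8.89 FPKM (2.30).

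Signalling and immediate early genes had medians above that of coding rows. Of 61 rows of the MAPK cascades, the kinase relays of which MAPK7 is part, 24 (39.3%, beside 26.4% of coding rows) were at least 2-fold higher and 10 (16.4%, beside 30.7%) at least 2-fold lower, with a median of 0.61. DUSP5, a phosphatase of ERK, was at 9.87 FPKM in AGO and listed at 0 in IgG. MAP2K3, which activates p38, was at 7.69 and 0.227 FPKM (2.82), and MKNK2, which phosphorylates EIF4E, at 74.3 and 13.8 FPKM (2.35). MAPKAPK2, the p38 target that stabilises cytokine mRNAs, was lowest at 46.8 and 194 FPKM (-2.03), and the adaptor GRB2 followed at 7.83 and 30.5 FPKM (-1.84).

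Of 32 immediate early and short-lived regulators, 12 (37.5%, beside 26.4% of coding rows) were at least 2-fold higher and 2 (6.25%, beside 30.7%) at least 2-fold lower, with a median of 0.57. CITED2 and BTG2 led, followed by FOSL1, an AP-1 subunit, at 14.3 and 0.343 FPKM (3.51). ZFP36, which destabilises AU-rich mRNAs, was at 4.58 FPKM in AGO and listed at 0 in IgG. EGR1 (0.955 and 5.40 FPKM, -1.71) and ID3 (6.29 and 19.7 FPKM, -1.51) were the lower ones.

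In the mTOR pathway, which couples nutrients to growth, the median of 38 rows was 0.33. TSC2, the brake on RHEB, was at 14.4 and 1.89 FPKM (2.41). On the other side were RHEB itself, at 2.47 and 27.7 FPKM (-3.05), and PRKAA1, a catalytic subunit of AMPK, at 3.01 and 71.3 FPKM (-4.17). Inhibitors and activators of the pathway stood on both sides, and no order by role was tested.

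Erythroid and stem cell transcription factors had a median of 0.26 over 17 rows. GATA2 was at 85.3 and 10.4 FPKM (2.92), KLF1 at 289 and 42.8 FPKM (2.73) and TAL1 at 18.6 and 4.99 FPKM (1.71). RUNX1 was lowest at 5.66 and 46.7 FPKM (-2.84), but lay at 7.51 and 5.03 FPKM in the control cells (0.50). In the BCL2 family of apoptosis regulators, BCL2L12 was at 699 and 74.1 FPKM (3.22), BAK1 at 39.6 and 6.98 FPKM (2.35) and BAD at 0.878 and 33.3 FPKM (-4.19). Among cell cycle genes, with a median of 0.07 over 39 rows, the inhibitors CDKN1A (7.23 and 0.525 FPKM, 2.43) and CDKN1B (7.46 and 0.877 FPKM, 2.17) were high and MKI67 (0.566 and 18.5 FPKM, -3.64) was lowest.

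Large gene families gave a middle ground. The 174 zinc finger rows had a median of 0.15. At least 2-fold higher were 48 (27.6%, beside 26.4% of coding rows) and at least 2-fold lower 47 (27.0%, beside 30.7%). ZNF706 was highest at 46.7 and 0.822 FPKM (4.71), but the control cells had 33.3 and 23.1 FPKM (0.51). The 157 solute carriers had a median of 0.35, with SLC25A28 first and the heme transporter SLC48A1 next at 63.5 and 3.54 FPKM (3.83). The 30 RAB GTPases had a median of 0.22, which was -0.73 over rows with a mean of 5 FPKM or more and -0.39 over rows at 1 FPKM or more in both precipitates.

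The mRNAs of the translation machinery were lower in AGO as a body. Of 74 cytosolic ribosomal protein rows, 60 (81.1%, beside 30.7% of coding rows) were at least 2-fold lower and 1, RPS27, was at least 2-fold higher. Their median was -2.11, and -2.12 in the control cells. RPL34 was at 71.1 and 1191 FPKM (-4.05), RPL9 at 37.2 and 654 FPKM (-4.10) and RPS4X at 36.3 and 493 FPKM (-3.73). RPL24 (524 and 468 FPKM, 0.16) and RPLP1 (479 and 473 FPKM, 0.02) were at equal levels. These mRNAs are short, with a median of 899 bases, and the shortest of 5 equal bins of coding transcripts had a median log2 ratio of -0.62.

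Translation factors had a median of -1.12 over 44 rows, with EIF3H, an EIF3 subunit, lowest at 1.74 and 47.3 FPKM (-4.14) and EIF2B2, a subunit of the exchange factor EIF2B, highest at 4.25 and 0.624 FPKM (1.69). Mitochondrial ribosomal proteins had a median of -0.86 over 64 rows. MRPL20 was an exception at 594 and 92.9 FPKM (2.66), and MRPS15 was at 4.88 and 81.4 FPKM (-3.81). Nuclear genes of the respiratory chain had a median of -1.58 over 59 rows, of which 42 (71.2%, beside 30.7% of coding rows) were at least 2-fold lower. COX7A2 (32.5 and 426 FPKM, -3.67) and COX7C (6.32 and 88.6 FPKM, -3.61), small subunits of cytochrome oxidase, were among the lowest, and SDHC, a membrane anchor of succinate dehydrogenase, was highest at 47.2 and 5.73 FPKM (2.84).

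Other housekeeping groups also had medians below that of all rows. Splicing factors of the SR and hnRNP families had a median of -1.73 over 33 rows, with HNRNPC at 24.7 and 194 FPKM (-2.92) and TRA2B at 5.29 and 57.0 FPKM (-3.20). Heat shock chaperones had a median of -1.53 over 24 rows. Of these, 17 (70.8%, beside 30.7% of coding rows) were at least 2-fold lower and none at least 2-fold higher. HSP90AA1 was at 4.79 and 45.9 FPKM (-3.02), whereas HSPA8 was at 442 and 590 FPKM (-0.42). Histone genes had a median of -1.60 over 47 rows, from HIST1H4C at 69.8 and 832 FPKM (-3.56) to HIST1H2BL at 541 and 224 FPKM (1.27). Chaperones and translocon subunits of the endoplasmic reticulum had a median of -0.95 over 21 rows.

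The proteasome was the list whose median differed most from the control cells among those with 20 rows or more. Its 40 rows had a median of -1.22 here and 0.04 in the control cells, where 38 rows were compared. PSMD7, a lid subunit, was at 1.82 and 30.4 FPKM (-3.48), and at 5.63 and 4.33 FPKM in the control cells (0.32). PSMG2, an assembly chaperone, was high in both, at 170 and 17.4 FPKM (3.22) here and at 160 and 23.0 FPKM (2.74) in the control cells. This difference was not tested.

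**Figure D3:**
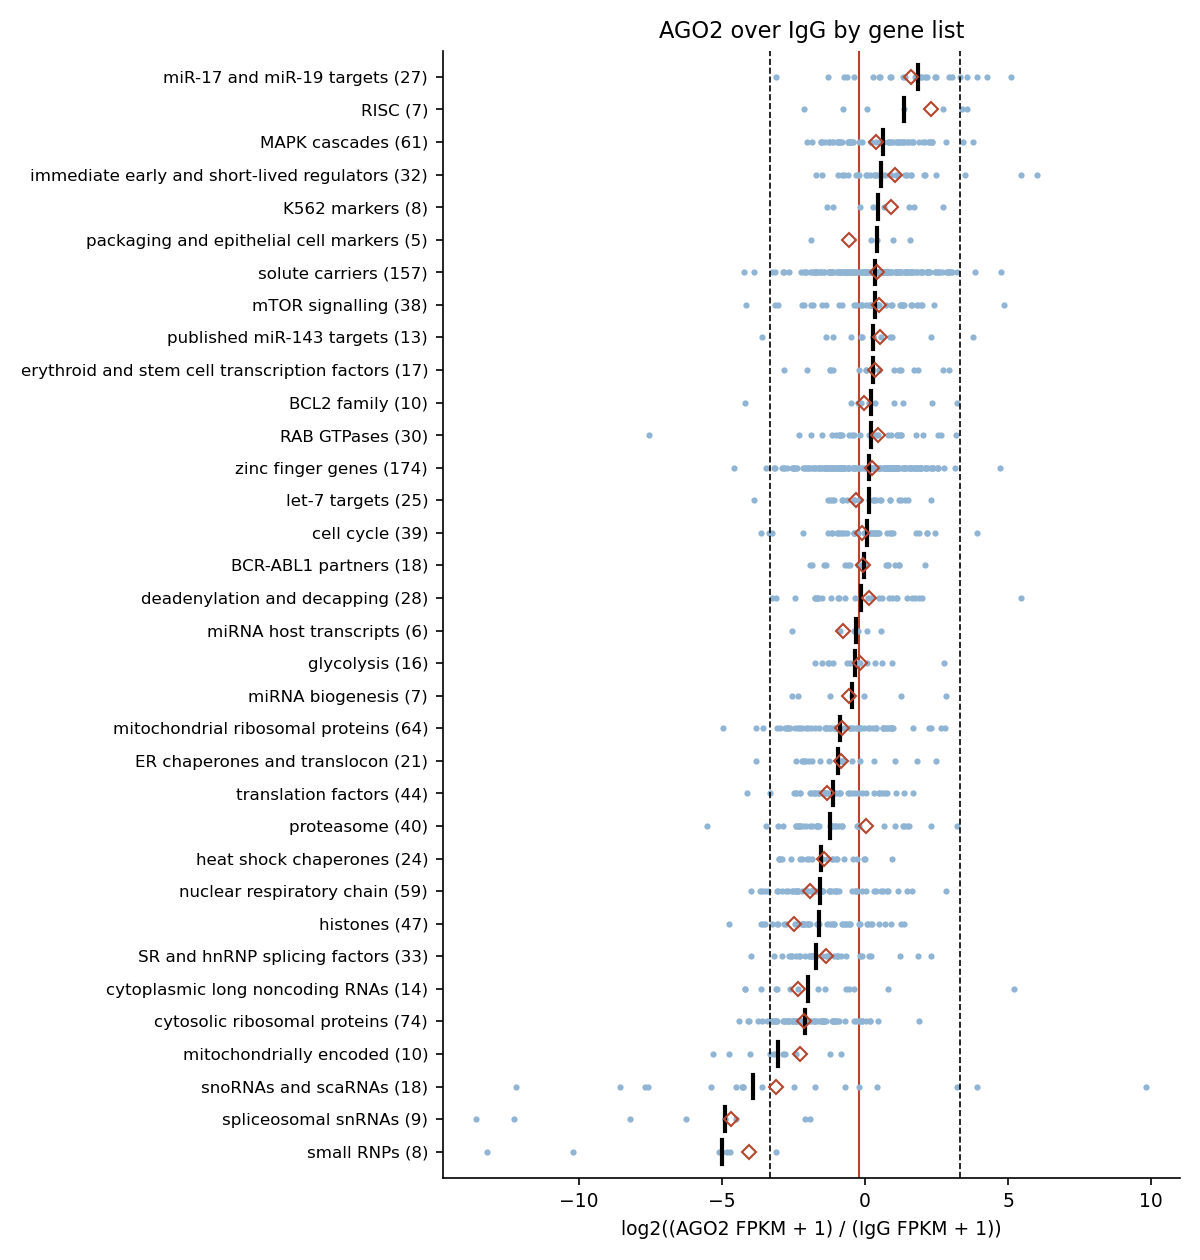
Log2 ratio of AGO over IgG for every gene list with 5 or more compared rows, sorted by the median, with the number of rows in brackets. Blue points are single rows in miR-143 cells, black bars their median, red diamonds the median in control-vector cells, the red line the median of all rows (-0.22) and dashed lines 10-fold. Targets of miR-17 and miR-19 lie at the top (1.85), and small RNPs (-5.01) and spliceosomal snRNAs (-4.89) at the bottom.

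The ratio also followed the base composition of the mRNA. Coding genes were divided into 5 bins of equal size by transcript GC content. The median log2 ratio went from -0.73 at a median GC of 39.5% over -0.57, -0.15 and 0.23 to 0.51 at 62.8%. The lowest bin held 6 rows at least 10-fold higher (0.380%) and 80 at least 10-fold lower (5.06%). The highest bin held 55 (3.48%) and 10 (0.633%), beside 1.54% and 2.58% of all coding rows. In the control cells the medians ran from -0.57 to 0.52. Over 7903 genes, which share the same 4 group averages, Spearman's rho was 0.26 with the ratio, 0.37 with the AGO level and 0.08 with the IgG level. The distance between the outer bins, 1.24, was 0.75 over genes at 1 FPKM or more in both precipitates.

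The 122 coding rows at least 10-fold higher had a median GC content of 58.9%, the 204 lower ones 43.9%, and all coding genes 50.4%. The part of GC content in single ratios was not tested. The 3′ UTR alone gave the same order, from -0.63 in the bin with the lowest GC content to 0.54 in the highest.

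Length mattered less. The bin of the shortest coding sequences had a median of -0.74 and the next -0.18, while the other 3 lay between 0.03 and 0.07. The length of the 3′ UTR, in which miRNA sites lie, was nearly without relation to the ratio, with medians from -0.26 to -0.05 and a rho of 0.03 over 7879 genes.

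**Figure D4:**
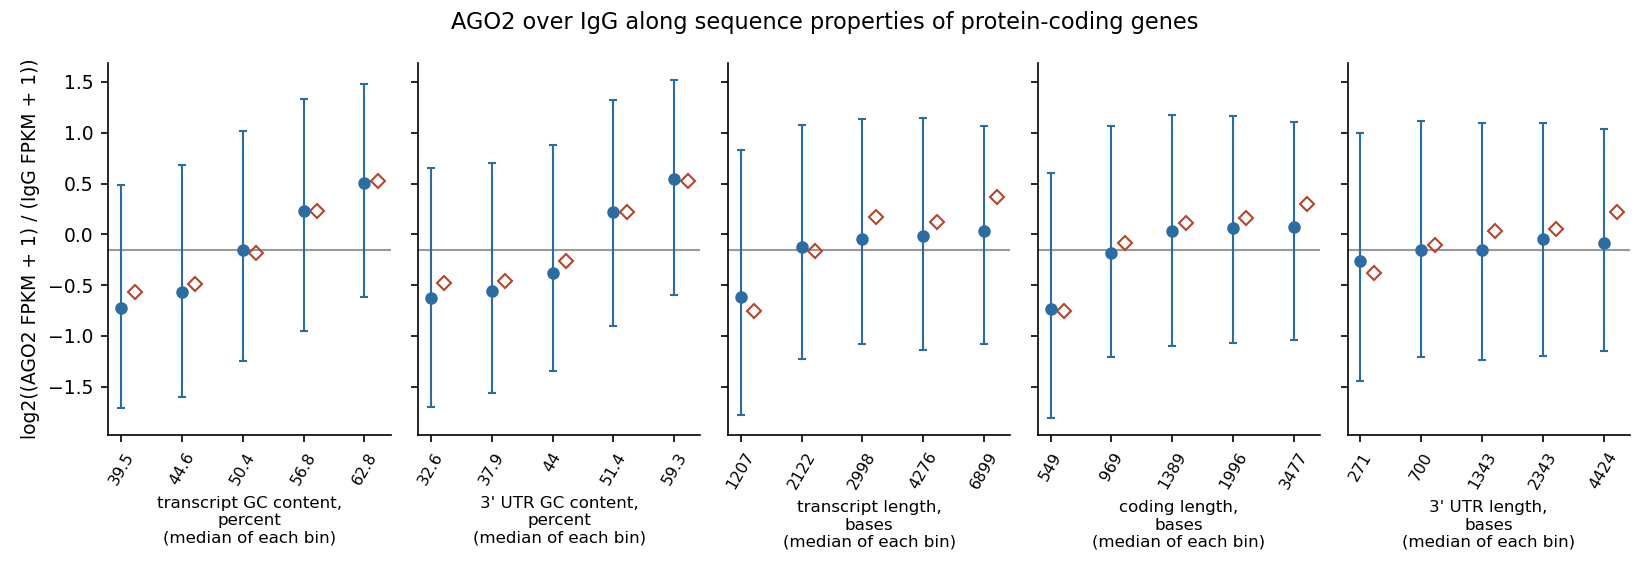
Median log2 ratio of AGO over IgG (blue points, bars spanning the quartiles) in 5 equal bins of protein-coding genes by transcript GC content, 3′ UTR GC content, transcript length, coding length and 3′ UTR length, with the median property of each bin on the horizontal axis. Red diamonds are the medians in control-vector cells and the grey line is the median of coding rows (-0.15). The medians climb from -0.73 to 0.51 with transcript GC content and stay between -0.26 and -0.05 along 3′ UTR length.

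The 3′ UTRs were then searched, on the sense strand, for matches to the seeds of 16 miRNAs, of which the vector produces miR-143-3p and miR-143-5p. A gene counted as having a site if its longest annotated 3′ UTR held an 8mer or either 7mer. For miR-143-3p the letters were TCATCTC or CATCTCA, found in 24.6% of 7879 genes, and the median log2 ratio was -0.01 with a site and -0.18 without. The difference, 0.17, was the 6th largest of the 16 miRNAs, and it was 0.02 in the control cells. Genes with an 8mer differed from genes without a site by 0.24, the 7th largest, and by 0.18 in the control cells. Genes with a miR-143-3p site had longer 3′ UTRs, with a median of 2849 bases against 1027.

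Seeds of the miR-17/92 cluster gave the largest differences. An 8mer for miR-92a-3p (GTGCAATA, in 3.59% of genes) went with a median of 0.68, which was 0.87 above genes without a site. For miR-17-5p (GCACTTTA, 5.62%) the 8mer difference was 0.75, and for miR-19b-3p (TTTGCACA, 6.88%) it was 0.69. In the control cells these differences were 0.90, 0.94 and 0.80. Over any site the order was led by miR-19b-3p at 0.40, then miR-92a-3p at 0.26, miR-143-5p at 0.24, miR-17-5p at 0.22 and miR-16-5p at 0.18.

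Among seeds of miRNAs named as belonging to other tissues, the liver miRNA miR-122-5p gave 0.14 over any site and 0.29 for 8mers. For miR-1-3p, a muscle miRNA, the values were -0.01 and 0.01. Seeds of miR-21-5p and miR-221-3p, which are known in blood cells, gave -0.18 and -0.14. Genes with these sites had 3′ UTRs of lower GC content, at 38.3% and 39.8%, beside 45.7% and 45.6% without. Within bins of 3′ UTR GC content the differences ran from 0.04 to 0.65 for miR-21-5p and from -0.13 to 0.33 for miR-221-3p. For 8mers the difference of a miRNA named for another tissue was thus larger than that of miR-143-3p. That of miR-143-5p, the other product of the vector, was larger still at 0.44, and was 0.43 in the control cells. The abundance of single miRNAs was not analysed here.

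Since the ratio followed GC content, the same differences were taken within 5 equal bins of 3′ UTR GC content. For miR-143-3p they were 0.24, 0.07, 0.22, 0.33 and 0.21 from the lowest to the highest bin, and for the control cells 0.18, 0.09, 0.12, -0.08 and 0.21. For miR-19b-3p they were 0.60, 0.35, 0.45, 0.75 and 0.79, and for the control cells 0.68, 0.72, 0.70, 0.70 and 1.26. Both of these seeds were positive in all bins of the miR-143 cells, and miR-19b-3p exceeded miR-143-3p in every one of them. Seeds of miR-143-5p, let-7a-5p, miR-17-5p, miR-92a-3p, miR-30a-5p and miR-21-5p were positive in all bins too, and those of the other miRNAs were not.

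**Figure D5:**
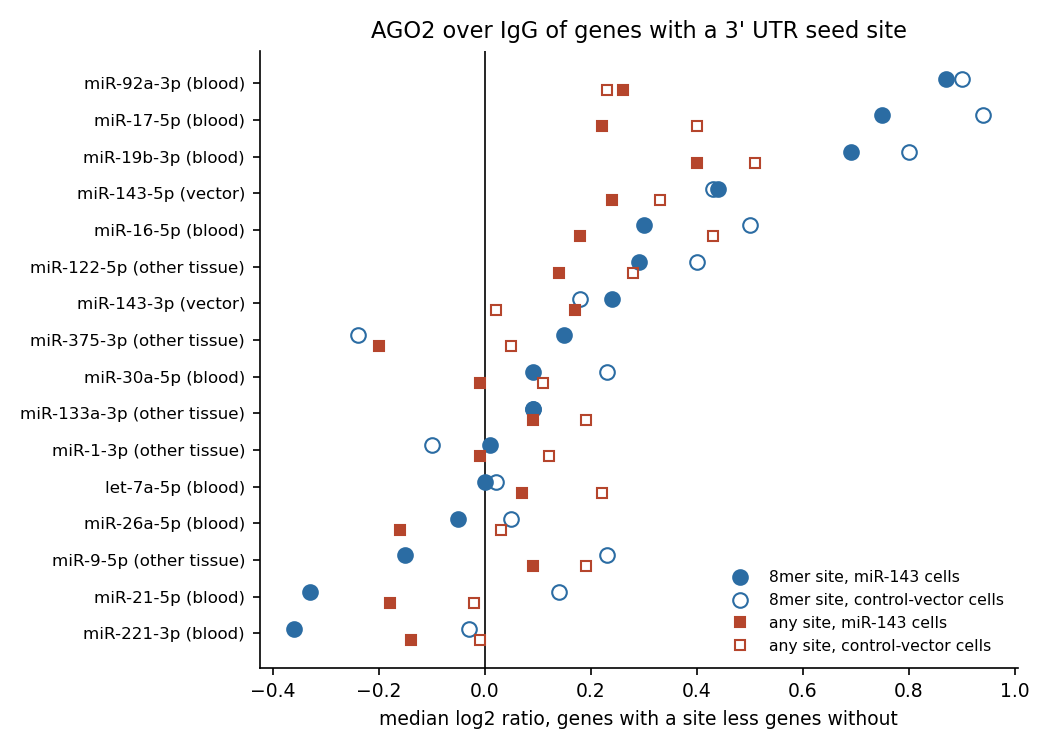
Median log2 ratio of genes with a 3′ UTR seed site less that of genes without, for 16 miRNAs sorted by the 8mer value. Circles stand for 8mers and squares for any 7mer or 8mer, filled for miR-143 cells and open for control-vector cells. The 8mers of miR-92a-3p, miR-17-5p and miR-19b-3p lie at 0.87, 0.75 and 0.69, and those of miR-143-3p at 0.24.

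Of the 122 coding genes at least 10-fold higher in AGO, 26 (21.3%) had a miR-143-3p site, beside 24.6% of all genes. Sites for miR-17-5p were in 50 of them (41.0%, beside 31.3%) and for miR-19b-3p in 44 (36.1%, beside 21.8%). For miR-92a-3p, of the same cluster, they were in 23 (18.9%, beside 20.1%). Sites for miR-16-5p were in 42 (34.4%, beside 29.6%) and for the liver miRNA miR-122-5p in 35 (28.7%, beside 24.0%). The shares with a miR-143-3p or miR-92a-3p site were close to those of all genes. The shares for miR-17-5p, miR-19b-3p, miR-16-5p and miR-122-5p were higher. None of these differences was tested. The 3′ UTRs of the set had a median length of 1096 bases, beside 1343 for all coding genes, and the part of length in these shares was not tested.

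Genes with a miR-143-3p 8mer and a ratio of at least 10-fold included MAPK7, SNX8 and MYCL, whose sites are shown above. MYCL, a MYC family transcription factor, was at 28.5 FPKM in AGO and 0.347 in IgG (4.46), and at 30.8 and 0.770 FPKM in the control cells (4.17). MIER2, a corepressor that binds histone deacetylases, was at 42.3 and 0.214 FPKM (5.16), and at 22.6 and 8.24 FPKM in the control cells (1.35). For SNX8 the control cells had 96.0 and 0.460 FPKM (6.05). These 4 were thus higher in AGO in both populations, with MAPK7 and MIER2 further apart from IgG in the miR-143 cells and SNX8 in the control cells. The IgG levels behind these wider gaps were small, at 0.0988, 0.214 and 0.460 FPKM. TBC1D20 (3.45), ACAP3 (3.76) and HDAC4 (3.59) also had such an 8mer and ratio, and their control values are not reported here.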

How the data were processed

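Average FPKM values per gene row were deposited by the authors as 1 table per group, with 61782 rows in the same order. The submitters' processing notes name TopHat, Cufflinks and hg38, and versions and annotation were not given in the sources used here. The labels describe rRNA removal with random primed amplification, and the study a TruSeq kit. The 2 tables of the miR-143 cells were joined by row order, and those of the control cells likewise. Rows naming several genes (1066) were kept as joined rows. Of 9577 rows with 1 name, 8672 (90.6%) were matched to GENCODE 29, 276 of them through a synonym, for class, length and GC content. The pseudocount was 1 FPKM. Members and gene lists were chosen with earlier results of these data known. Named were MIR143, MAPK7, AGO2 and TNRC6A, the 15 highest and 10 lowest coding ratios at 1 FPKM or more in both groups, the 10 highest AGO levels, the 5 highest levels listed at 0 in the other group, and the 4 highest and 4 lowest of each list and the ends of each class, of which the text prints part. MIER2 and MYCL were chosen after their values were seen. The smallest measurable level was the value of rank 10 among values above 0 times transcript length. Python 3.11.15 with pandas 2.3.3, numpy 2.4.6, scipy 1.17.1 and matplotlib 3.10.9 was used, and the counting was tested on simulated data. Some genes of the lists are not reported here.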

Additional observations from a re-analysis of the deposited data

Results flagged for a closer look

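Of 8648 rows compared in both cell populations, 7 were at least 10-fold higher in one and at least 10-fold lower in the other, and 4 of these carry 1 protein-coding gene. MDC1 had a log2 ratio of 6.19 in the cells with miR-143 and -11.18 in those with the control vector. ACSL1, a fatty acid CoA ligase, had 4.22 (21.9 FPKM in AGO and 0.225 in IgG) and -3.79 (3.43 and 60.5 FPKM). C2CD3, a centriole protein, had -3.36 (1.70 and 26.7 FPKM) and 3.44 (28.5 and 1.72 FPKM). UPF3A, a factor of nonsense-mediated decay, had -3.74 (2.21 and 42.0 FPKM) and 4.63 (23.7 FPKM and a listing at 0). Each was flagged because its ratio went in opposite directions in the cell populations, and the difference was not tested.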

How the results depend on the processing

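No paired analysis was possible because the tables hold 1 average per group, and for the same reason no replicate could be left out. The 170 higher and 391 lower rows became 1236 and 1316 with a pseudocount of 0.1, 1342 and 1427 with 0.01, 74 and 147 over rows at 1 FPKM or more in both groups, 658 and 1155 at 5-fold, and 42 and 123 at 20-fold. Scaling to the same upper quartile gave 286 higher rows and to the same sum over coding rows 309, beside 308 lower. The share of higher among called rows was 30.3%, but 40.9% with equal medians, 47.7% with equal upper quartiles, 50.1% with equal coding sums, 48.4% and 48.5% with the smaller pseudocounts. Equal coding sums moved the median of all rows by 0.41, equal upper quartiles by 0.36 and equal medians by 0.22. A plain ratio over rows at 1 FPKM or more in both groups, chosen after seeing the data, gave 126 and 261. Over those rows the pseudocount of 1 gave 74 and 147. The miR-143-3p difference ran from 0.12 to 0.24. Without a filter the counts stayed at 170 and 391, as a row under 1 FPKM in both groups cannot reach 10-fold. Of the medians of classes and lists and the differences between outer bins under these settings, 302 moved by less than 0.5 relative to the median of all rows and 20 by more, among them the 1.35 of the 7 silencing genes, which ran from 0.06 to 2.77. The 0.22 of the RAB GTPases became -0.73 over rows with a mean of 5 FPKM or more and -0.39 over rows at 1 FPKM or more in both groups, below the median of all rows, and the -0.13 of the deadenylation and decapping factors became 0.16 over the former. The lists below the median of all rows numbered 15 to 17.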
